A study of Saccharomyces cerevisiae and Saccharomyces cerevisiae x Saccharomyces paradoxus and Saccharomyces cerevisiae x Saccharomyces mikatae with 18 samples.

Results

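Transcription factors are the proteins through which a change at one locus can reach many other genes, and 58 of their genes were followed here through 4 Saccharomyces species and 3 interspecific hybrids. The 58 are budding yeast regulators named by ORF identifier, in a rule that sets no threshold on a measured value, and 52 of them were among the 4730 genes in the tables. Positions beside a gene name are those of the S. cerevisiae gene in RefSeq R64. CRZ1, IFH1, REB1, TYE7, RTG1 and SWI4 were not analysed here. The study asked how expression differences that separate S. cerevisiae from S. paradoxus, from S. mikatae or from S. bayanus are divided between the gene's own DNA strand, acting in cis, and diffusible factors, acting in trans. It sequenced the poly-adenylated ends of transcripts from 18 libraries, 6 of S. cerevisiae homozygotes, 2 of each other species as homozygotes and 2 of each hybrid.

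The S. cerevisiae homozygote was YHL068, a cross of BY4741 and BY4716. The other homozygotes were S. paradoxus CBS 432, S. mikatae IFO 1815 and S. bayanus CBS 7001, all labelled wild type. The hybrids shared the S. cerevisiae parent BY4716, crossed to OZY361 (S. paradoxus, giving YYM014), to JRY9175 (S. mikatae, giving YYM030) or to JRY9191 (S. bayanus, giving YYM015). All strains were diploid and were grown in rich YPD medium at 25 °C to log phase, at an optical density between 0.65 and 0.75. The strains carried auxotrophic markers that differed between the homozygotes and the hybrids, with lys2Δ0 from BY4716 in every hybrid. Every group is 1 strain, with 6 libraries for the S. cerevisiae homozygotes, 2 for each species pair, and 2 biological replicates for every other group, so that a difference between strains and one between species cannot be told apart, and homozygotes and hybrids also differ in strain background.

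A transcription factor binds short DNA sequences near its targets and turns their transcription up or down in answer to nutrients, stress or the cell cycle stage. A factor's own mRNA level is one route by which a species difference can act in trans. Others, such as its amino acid sequence or its location in the cell, need not show in that level. In a hybrid both alleles of a gene meet the same nuclear factors, so the ratio of the 2 alleles reports the cis part of a difference, whereas the ratio of the homozygotes holds cis and trans parts together.

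The values are scores, sums of reads weighted for GC content, here divided by the upper quartile of each column and called scaled scores. Ratios are log2 values of the other species over S. cerevisiae, with 1 added to each scaled score, and a member was called when limma's adjusted p over all genes was under 0.05. Total scores ran from 4760197 to 6883279 in homozygote libraries and from 2255430 to 3336994 in single alleles. Replicates correlated at r = 0.907 to 0.941 across genes on the log2 scale, and replicates of a group differed over the members with an SD of 0.951 to 1.5 log2 units. LYS2, which the lys2Δ0 parent lacks, stood at 0 to 1.72 in the S. cerevisiae alleles of the hybrids and at 69.8 to 199 in the partner alleles, so that the assignment of reads to alleles followed the genotype at that gene.

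The share of transcription factor genes that differed was below that of all genes in 4 of the 6 species comparisons and above it in 2, which was not tested. In homozygotes, 3 of the 50 members tested were called in S. paradoxus (6%, against 19.9% of all genes tested), 6 of 50 in S. mikatae (12%, against 19.7%) and 13 of 50 in S. bayanus (26%, against 34.6%). Between the alleles of the hybrids, 3 of 45 members were called in S. paradoxus (6.67%, against 4.98% of all genes), 9 of 48 in S. mikatae (18.8%, against 15.9%) and 12 of 48 in S. bayanus (25%, against 35.5%). The median absolute log2 ratio of the members was 0.8, 0.75 and 0.91 in the homozygotes of these species, beside 0.9, 0.92 and 1.04 for all genes, and 1.11, 0.83 and 0.8 between alleles, beside 0.72, 0.83 and 0.95. The direction was mixed in each. In homozygotes the called members divided into 2 higher and 1 lower in S. paradoxus (8.38% and 11.5% of all genes), 2 and 4 in S. mikatae (8.25% and 11.5%) and 7 and 6 in S. bayanus (18.4% and 16.2%). Between alleles they divided into 2 higher and 1 lower (2.42% and 2.56%), 6 and 3 (7.82% and 8.07%), and 7 and 5 (18.3% and 17.2%). Scaling by the total turned the homozygote splits into 2 higher and 3 lower, 1 and 6, and 4 and 6. Scaling by the median ratio gave 2 and 2 in S. mikatae. The splits of all genes under these scalings are not given here.

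These calls rest on 2 samples a group. The 2 alleles measured in a hybrid share their library, and with the library as a block no member was called between alleles in S. paradoxus or S. mikatae, where limma then called 0 of all genes (1183 and 1533 at an unadjusted p under 0.05), and 6 were called in S. bayanus, beside 23.8% of all genes. Leaving out any 1 of the 4 libraries ended all calls, 0 members and 0 genes, in the S. paradoxus and S. mikatae homozygotes, and so did leaving out either S. bayanus homozygote; without S. cerevisiae replicate 5 or 6, 6 and 3 members were called in the S. bayanus homozygotes.

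**Figure D1:**
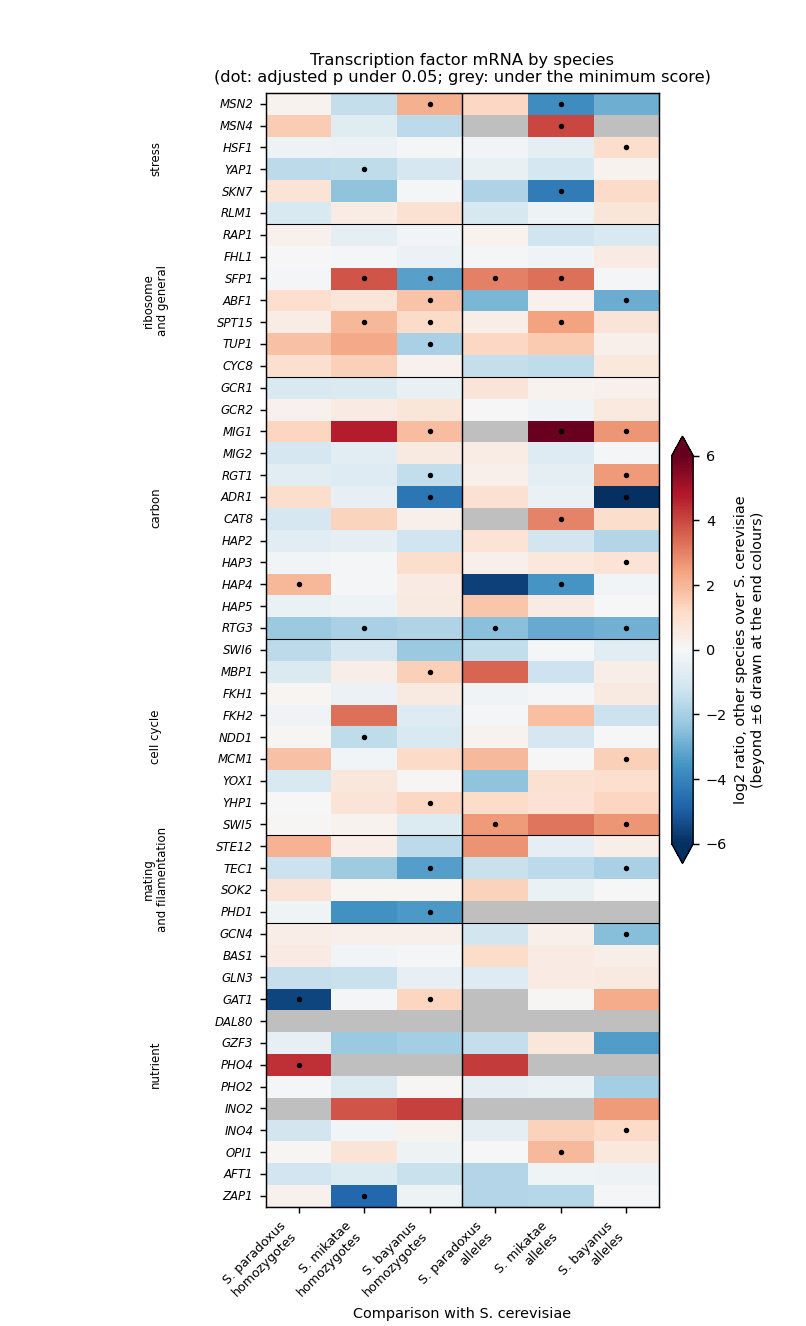
Log2 ratio of 51 of the members (rows, grouped by role) in homozygotes (left 3 columns) and between hybrid alleles (right 3 columns) of the 3 other species, in the order S. paradoxus, S. mikatae, S. bayanus, against S. cerevisiae, red for higher and blue for lower in the other species, with a dot for an adjusted p under 0.05 and grey for members under the minimum score. Dots are spread over all 6 roles and 29 of all 52 members have at least 1 (55.8%, against 66.8% of all genes), while rows such as FHL1 and FKH1 stay pale throughout.

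The general and ribosomal group, 7 members listed, held SFP1 (YLR403W, XII:925568-927619), the member called most often, in 4 of the 6 species comparisons. Sfp1 activates ribosomal protein and ribosome biogenesis genes when nutrients are plentiful. In the 2 S. mikatae homozygotes SFP1 had scaled scores of 5131 and 7067, and in the S. cerevisiae libraries of that pair 602 and 318, a log2 ratio of 3.78 ± 0.426 (SE, adjusted p = 0.0203). In the S. mikatae hybrid the S. mikatae allele stood at 6846 and 5225 and the S. cerevisiae allele at 368 and 971 (3.32 ± 0.556, adjusted p = 0.037). The high allele was thus high in both settings, and the groups did not overlap in either.

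The S. paradoxus allele of SFP1 was as high, 6096 and 4749 against 480 and 904 for the S. cerevisiae allele (log2 ratio 3.03 ± 0.428, adjusted p = 0.0452), but the S. paradoxus homozygotes stood at 958 and 1362, within the 581 and 2731 of their S. cerevisiae libraries (log2 ratio -0.14 ± 0.818). In S. bayanus the order was turned, with 333 and 846 in the homozygotes against 5196 and 4941 in S. cerevisiae (log2 ratio -3.25 ± 0.512, adjusted p = 0.0181), and no difference was detected between alleles, at 618 and 528 against 684 and 582 (log2 ratio -0.14 ± 0.194, adjusted p = 0.6). The S. cerevisiae homozygotes of SFP1 themselves ran from 318 to 5196 over 6 libraries of 1 strain. Against all 6 of them, the log2 ratio was 2.09 in S. mikatae (adjusted p = 0.181) and -1.41 in S. bayanus (adjusted p = 0.359), so that both homozygote calls of SFP1 depend on which S. cerevisiae libraries are used. Between alleles, the library block ended the calls in S. paradoxus (adjusted p = 0.117) and S. mikatae (adjusted p = 0.083).

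SPT15 (YER148W, V:465303-466025), which encodes the TATA-binding protein used at promoters of all 3 nuclear RNA polymerases, was higher in 2 of the species. Its scaled scores were 586 and 1028 in the S. mikatae homozygotes against 181 and 208 in S. cerevisiae (log2 ratio 1.99 ± 0.374, adjusted p = 0.0401), and 965 and 971 for the S. mikatae allele against 188 and 176 (2.41 ± 0.227, adjusted p = 0.0231; 0.0745 with the block). The S. bayanus homozygotes, at 366 and 337 against 143 and 171, gave 1.16 ± 0.237 (adjusted p = 0.0306). Every S. mikatae value lay above every S. cerevisiae value in both settings. TUP1 (YCR084C), a subunit of the Tup1-Cyc8 corepressor, was lower in S. bayanus homozygotes (log2 ratio -1.93, adjusted p = 0.0154; -1.13 and 0.237 against all 6 S. cerevisiae libraries).

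ABF1 (YKL112W, XI:226570-228765) encodes an essential general regulatory factor that keeps promoters and replication origins open, and its 2 readouts went in opposite directions. The S. bayanus homozygotes stood at 328 and 323 against 120 and 80.8 in S. cerevisiae (log2 ratio 1.71 ± 0.3, adjusted p = 0.0225; 1.29 and 0.0624 with all 6 S. cerevisiae libraries). The S. bayanus allele of the hybrid stood at 10.9 and 7.5 against 51.2 and 118 for the S. cerevisiae allele (log2 ratio -2.97 ± 0.558, adjusted p = 0.0273; 0.0612 with the block). In S. paradoxus, homozygotes were at 221 and 270 against 108 and 138, and alleles at 26.4 and 14.6 against 119 and 160, both short of the threshold. The S. mikatae allele, at 247 and 241, was close to its homozygotes at 346 and 299. Low values were thus seen in the S. paradoxus and S. bayanus alleles and not in the S. mikatae allele. RAP1, FHL1 and CYC8 were called in no comparison.

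Among the 12 listed carbon regulators, ADR1 (YDR216W, IV:895035-899006) had the largest absolute log2 ratio of any member in the 6 species comparisons. Adr1 activates genes for ethanol and fatty acid use once glucose is spent. The S. bayanus homozygotes had scaled scores of 14.6 and 9.35 against 279 and 234 in S. cerevisiae (log2 ratio -4.33 ± 0.368, adjusted p = 0.00997), and the S. bayanus allele 0 and 1.5 against 229 and 652 (-7.94 ± 0.792, adjusted p = 0.00946; 0.0315 with the block). With 5 added before the logarithm the second ratio was -6.1, so that its size depends on the constant. In S. paradoxus and S. mikatae neither readout was called, and homozygotes ranged from 185 to 943. The low ADR1 value was thus seen in S. bayanus in both settings, and the allele call was past the threshold under all 9 other settings tried.

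**Figure D2:**
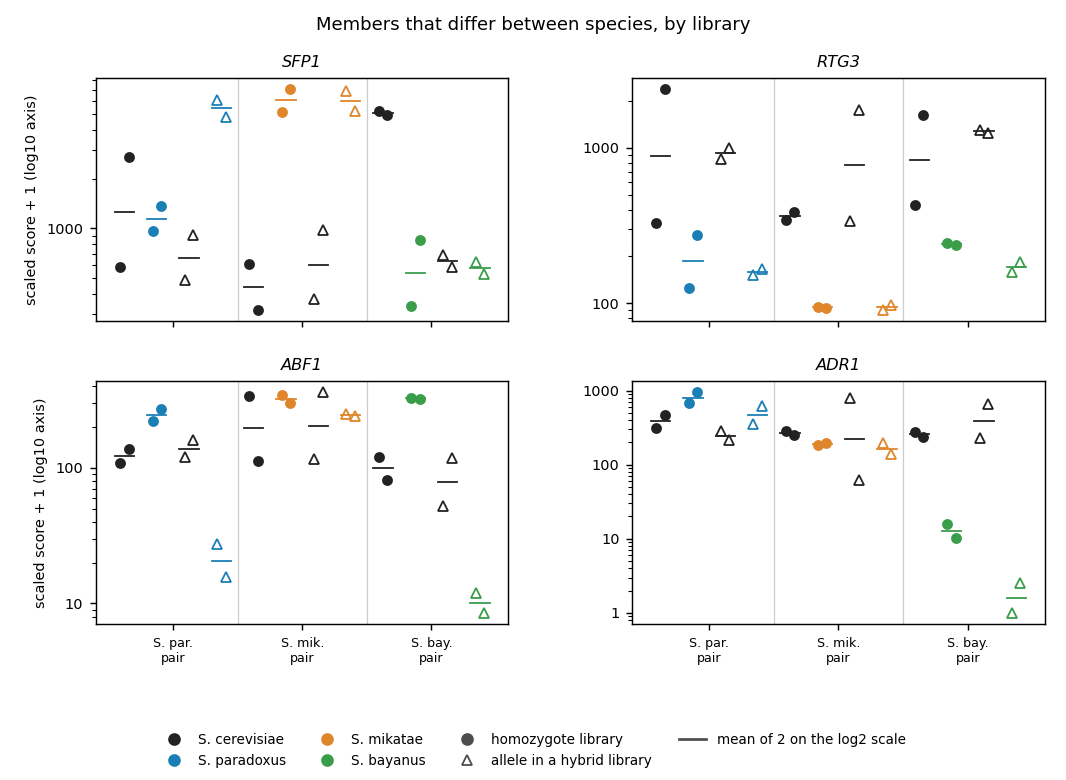
Scaled score plus 1, on a log10 axis, of SFP1, RTG3, ABF1 and ADR1 in every library, grouped by species pair from left to right, with filled circles for homozygotes, open triangles for hybrid alleles, colours for species and a bar for the mean of the 2 replicates on the log2 scale. ADR1 is low in both S. bayanus groups, RTG3 is lower in the partner allele of each hybrid, and ABF1 is low in the S. paradoxus and S. bayanus alleles but not in their homozygotes.

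RTG3 (YBL103C, II:22076-23536) encodes a basic helix-loop-helix activator of the retrograde response, which adjusts metabolism to mitochondrial function. In the S. paradoxus hybrid the S. paradoxus allele stood at 150 and 165 and the S. cerevisiae allele at 847 and 997 (log2 ratio -2.53 ± 0.281, adjusted p = 0.0364; 0.117 with the block). In the S. bayanus hybrid the values were 158 and 184 against 1304 and 1244 (-2.89 ± 0.178, adjusted p = 0.00698; 0.0315 with the block). The S. mikatae homozygotes, at 93.5 and 92.1 against 343 and 386, gave -1.96 ± 0.255 (adjusted p = 0.024). RTG3 was lower than S. cerevisiae in all 6 species comparisons, from -1.79 to -3.04, and the partner allele lay below the S. cerevisiae allele in each of the 6 hybrid libraries. The other 3 comparisons did not pass the threshold, with S. cerevisiae replicates as far apart as 326 and 2387 in 1 pair of homozygotes.

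Mig1 represses genes for other sugars while glucose is present. In the S. mikatae hybrid MIG1 (YGL035C, VII:431548-433062) stood at 172 and 55.4 for the S. mikatae allele against 0 and 1.64 (log2 ratio 5.92 ± 0.898, adjusted p = 0.0326; 0.0853 with the block, and 4.16 with 5 added before the logarithm). In S. bayanus it was higher in homozygotes (74.8 and 103 against 18.9 and 28.9, log2 ratio 1.86, adjusted p = 0.0341) and between alleles (102 and 96 against 17.9 and 12.8, log2 ratio 2.63, adjusted p = 0.013; 0.0388 with the block). MIG1 had low scores in most libraries, and its S. cerevisiae homozygotes ran from 0.643 to 28.9.

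HAP4 and RGT1 changed with the hybrid and are described below. CAT8 (YMR280C), an activator of gluconeogenic genes, was higher in the S. mikatae allele (log2 ratio 2.99, adjusted p = 0.0382; 0.0941 with the block), and HAP3 (YBL021C), a DNA-binding subunit of the CCAAT-binding complex that induces respiration genes, was slightly higher in the S. bayanus allele (0.81, adjusted p = 0.0399; 0.087 with the block). GCR1 and GCR2, the activators of glycolytic genes, were not called, nor were MIG2, HAP2 and HAP5.

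The stress regulators included Msn2 and Msn4, paralogous zinc finger activators of the general stress response. MSN2 (YMR037C) was higher in S. bayanus homozygotes (272 and 219 against 84.8 and 35.9, log2 ratio 2.12, adjusted p = 0.0422; 1.32 and 0.171 with all 6 S. cerevisiae libraries) and lower in the S. mikatae allele (95.9 and 31.4 against 886 and 621, log2 ratio -3.73, adjusted p = 0.037; 0.0745 with the block). MSN4 (YKL062W, XI:323228-325120) moved the other way in that hybrid, at 48.7 and 97.3 for the S. mikatae allele against 3.44 and 3.28 (log2 ratio 4 ± 0.556, adjusted p = 0.0303; 0.0781 with the block). The 2 paralogs therefore differed in opposite directions between the alleles of the same libraries. SKN7 (YHR206W, VIII:512732-514600), which joins Yap1 in the oxidative stress response, was lower in the S. mikatae allele, at 24.4 and 18 against 540 and 304 (log2 ratio -4.21 ± 0.419, adjusted p = 0.0234; 0.0745 with the block). YAP1 (YML007W) was lower in S. mikatae homozygotes (log2 ratio -1.54, adjusted p = 0.0459), and HSF1 (YGL073W), the essential heat shock factor, was higher in the S. bayanus allele (1.04, adjusted p = 0.0221; 0.0567 with the block). RLM1, a cell wall integrity factor, was called in no comparison.

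Of the 10 cell cycle regulators listed, 5 were called in at least 1 of the 6 species comparisons, as were 66.8% of all genes. SWI5 (YDR146C, IV:748613-750742), which drives genes of the exit from mitosis, was higher in the S. paradoxus allele, at 341 and 323 against 44.1 and 70 (log2 ratio 2.56 ± 0.364, adjusted p = 0.0452; 0.117 with the block), and in the S. bayanus allele, at 239 and 156 against 20.5 and 44 (2.64 ± 0.502, adjusted p = 0.0279; 0.0619 with the block). The homozygotes of these pairs gave 292 and 194 against 268 and 193, and 49.1 and 104 against 108 and 149, and were not called. In the S. mikatae hybrid the S. mikatae allele was also above the S. cerevisiae allele, at 181 and 126 against 43 and 4.93 (log2 ratio 3.23, not called). NDD1 (YOR372C), the coactivator of G2/M genes, was lower in S. mikatae homozygotes (370 and 510 against 1358 and 1132, log2 ratio -1.51, adjusted p = 0.0416). MBP1 (YDL056W), the DNA-binding part of the G1/S factor MBF, was higher in S. bayanus homozygotes (1.45, adjusted p = 0.0235), as was YHP1 (YDR451C), a homeodomain repressor of the M/G1 boundary (1.24, adjusted p = 0.0426). With all 6 S. cerevisiae libraries, the ratios were 0.89 (adjusted p = 0.47) for MBP1 and 0.81 (adjusted p = 0.0986) for YHP1. MCM1 (YMR043W), a MADS-box factor, was higher in the S. bayanus allele (1.42, adjusted p = 0.0418; 0.0643 with the block). SWI6, FKH1, FKH2 and YOX1 were not called.

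Of the 4 mating and filamentation factors, 2 were lower in S. bayanus homozygotes (16.2% of all genes were) and 1 of them also between alleles (17.2%). TEC1 (YBR083W, II:409169-410629), the partner of Ste12 at filamentation genes, stood at 14.6 and 16.5 in the S. bayanus homozygotes against 142 and 184 (log2 ratio -3.3 ± 0.329, adjusted p = 0.0101), and at 31.4 and 21 against 82 and 124 between alleles (-1.93 ± 0.391, adjusted p = 0.0319; 0.0731 with the block). In the other species the ratio lay between -1.29 and -2.13 and did not pass the threshold. PHD1 (YKL043W, XI:356748-357848), an activator of pseudohyphal growth, stood at 2.92 and 7.19 in the S. bayanus homozygotes against 45 and 83.4 (-3.46 ± 0.622, adjusted p = 0.0236), and its alleles were under the minimum score in all 3 hybrids. STE12 and SOK2 were not called. All strains were diploid, a state in which Ste12 does not serve mating.

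Among the 13 nutrient regulators, GAT1 (YFL021W, VI:95966-97498), a GATA activator of nitrogen catabolism genes, was lower in S. paradoxus homozygotes, at 4.77 and 1.36 against 155 and 186 (log2 ratio -5.53 ± 0.617, adjusted p = 0.0225). In S. bayanus homozygotes it was higher, at 72.5 and 60.4 against 26.7 and 25.7 (1.3, adjusted p = 0.0468), where all 6 S. cerevisiae libraries gave 0.05 (adjusted p = 0.968); GAT1 ran from 25.7 to 186 among them. PHO4 (YFR034C, VI:225020-225958), the activator of the phosphate starvation response, was higher in S. paradoxus homozygotes, at 42.1 and 21.8 against 0 and 1.29 (4.37 ± 0.888, adjusted p = 0.0419), and its alleles stood at 38 and 88.9 against 3.26 and 1.52 (4.18, not called). With 5 added, the PHO4 homozygote ratio was 2.66, and with all 6 S. cerevisiae libraries it was 2.87 (adjusted p = 0.0558). ZAP1 (YJL056C, X:330431-333073), the zinc-responsive activator, was lower in S. mikatae homozygotes, at 31.4 and 24 against 701 and 782 (-4.7 ± 0.292, adjusted p = 0.0149), and its alleles stood at 45.7 and 35.9 against 179 and 100 (-1.7, not called). The 2 S. cerevisiae libraries of that pair were above the other 4 for ZAP1, which ran from 76.4 to 198.

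GCN4 (YEL009C), the activator of amino acid synthesis, was lower in the S. bayanus allele (log2 ratio -2.56 ± 0.184, adjusted p = 0.00748; 0.0315 with the block). GCN4 is controlled largely at translation, which transcript ends do not report. Of the phospholipid regulators, OPI1 (YHL020C), a repressor, was higher in the S. mikatae allele (1.96, adjusted p = 0.0279; 0.0745 with the block), and INO4 (YOL108C), an activator that pairs with Ino2, in the S. bayanus allele (1.16, adjusted p = 0.0306; 0.0738 with the block). DAL80, a GATA repressor, was under the minimum score in every comparison, and BAS1, GLN3, GZF3, PHO2, INO2 and AFT1 were not called.

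Homozygote and allele ratios of the same member were then set side by side. In S. mikatae, SFP1 and SPT15 were called in both, in the same direction. In S. bayanus 5 members were called in both, and in S. paradoxus there were 0. Of the 5, ADR1, MIG1 and TEC1 had the same direction and ABF1 and RGT1 opposite ones. Of all genes, 34.6% were called in S. bayanus homozygotes and 35.5% between its alleles, and 19.7% and 15.9% in S. mikatae. The share of all genes called in both is not given here, so these counts are not a result about the members. The difference of the 2 ratios, tested directly, was called for 2 of 49 members in S. paradoxus (4.08%, against 0.831% of all genes), both with the higher ratio in homozygotes (0.284% of all genes higher, 0.547% lower). It was called for 0 of 50 in S. mikatae (0.11% of all genes, 0.022% higher and 0.0879% lower; 6 members at an unadjusted p under 0.05, and 0 of all genes with the block), and for 2 of 50 in S. bayanus (4%, against 1.84%), 1 in each direction (1.25% higher and 0.591% lower).

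**Figure D3:**
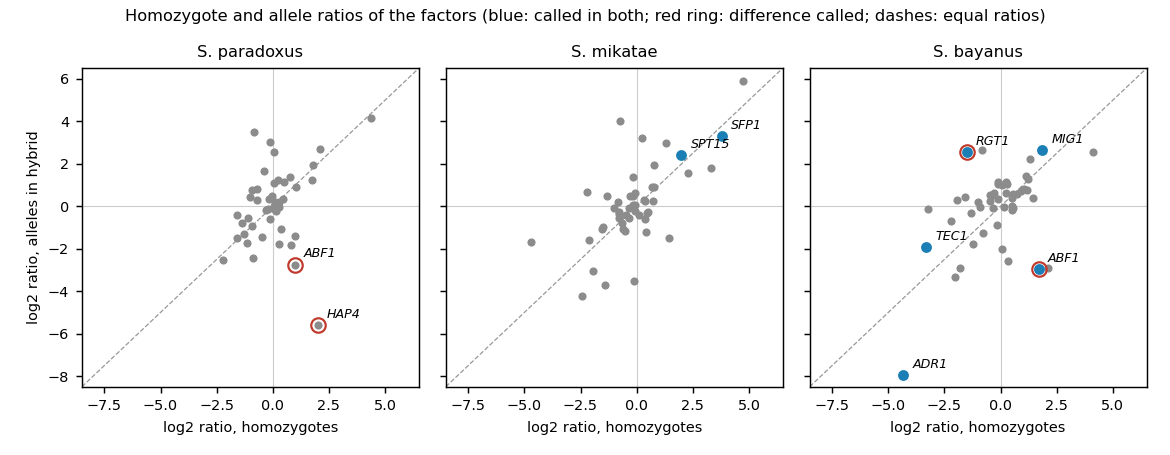
Log2 ratio between hybrid alleles against log2 ratio between homozygotes for each member, 1 panel for each species pair, with a dashed line where both are equal, blue points for members called in both and red rings for members whose difference was called. HAP4 and ABF1 in S. paradoxus and ABF1 and RGT1 in S. bayanus lie far from the line, SFP1 and SPT15 lie near it in S. mikatae, and ADR1 is below 0 on both axes in S. bayanus.

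HAP4 (YKL109W, XI:232227-233891) encodes the activating subunit of the CCAAT-binding complex and is the limiting, carbon-regulated part of it. The S. paradoxus homozygotes stood at 1735 and 2258 against 555 and 448 in S. cerevisiae (log2 ratio 1.99 ± 0.3, adjusted p = 0.0276), and the S. paradoxus allele at 0 and 5.63 against 129 and 120 (-5.61 ± 1.04, adjusted p = 0.0595). The ratio was thus above 0 in homozygotes and below it between alleles, a difference of 7.59 ± 1.13 (adjusted p = 0.0461; 0.0613 with the block, and 6.13 with 5 added). The S. mikatae allele of HAP4 was also lower, at 16.7 and 8.98 against 126 and 186 (-3.53 ± 0.472, adjusted p = 0.0289; 0.0791 with the block), while homozygotes of that pair stood at 643 and 628 against 744 and 641.

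For ABF1 the difference of the ratios was 3.74 ± 0.558 in S. paradoxus (adjusted p = 0.0461; 0.0851 with the block) and 4.68 ± 0.656 in S. bayanus (adjusted p = 0.034; 0.0679 with the block). In S. paradoxus it was 3.62 (adjusted p = 0.0691) with all 6 S. cerevisiae libraries and missed the threshold without a minimum score (adjusted p = 0.0507). The S. cerevisiae values overlapped between the settings, from 80.8 to 340 in homozygotes and from 51.2 to 360 in alleles, while the S. paradoxus and S. bayanus alleles lay below their own homozygotes.

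RGT1 (YKL038W, XI:365605-369117) encodes a repressor of hexose transporter genes that is relieved by glucose. The S. bayanus homozygotes stood at 190 and 182 against 505 and 549 in S. cerevisiae (log2 ratio -1.5 ± 0.212, adjusted p = 0.0152). The S. bayanus allele stood at 162 and 166 against 25.6 and 28.4 (2.56 ± 0.247, adjusted p = 0.00919; 0.0338 with the block). The difference of the ratios was -4.06 ± 0.294 (adjusted p = 0.00714; 0.0334 with the block). Here the S. bayanus values were close in both settings, and the S. cerevisiae value was lower in the hybrid. The call for RGT1 between alleles was past the threshold under all 9 other settings, and that for the difference under 11 of 14. No member's difference was called in S. paradoxus without any 1 of its 6 libraries, and in S. bayanus the count was 0 without either hybrid replicate or S. bayanus homozygote replicate 1.

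The level of each S. cerevisiae allele in the 6 hybrid libraries was compared with the 6 S. cerevisiae homozygotes, a comparison chosen after the values had been seen. Of 47 members, 6 had every hybrid value below every homozygote value (4.8% of all genes did) and 0 had every value above (2.78% of all genes did). MSN4 had a lowest, median and highest scaled score of 0, 2.4 and 11.5 in hybrids and of 275, 309 and 466 in homozygotes. RGT1 had 24.5, 27.1 and 45.7 against 360, 489 and 549. PHD1 had 0, 1.42 and 5.12 against 45, 63.5 and 94.5. The log2 difference of the medians was -6.51, -4.13 and -4.74 for these 3. The minimum score was applied here to the mean over hybrid alleles and homozygotes together, for members as for all genes. MSN4 and PHD1, low in the hybrid alleles, passed it only through their homozygotes. HAP4 had 12.8, 127 and 186 against 396, 598 and 744, and SWI5 4.93, 43.5 and 70 against 108, 168 and 268. NDD1 had 547, 860 and 985 against 1030, 1120 and 1360, so that its groups were separate by a small margin. The count was 6, 5 and 8 under scaling by the total, by the median ratio and by 1 factor for both alleles. The share of all genes under these scalings is not given here.

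The same was asked of the alleles of the other 3 species against their own homozygotes. Of 51 members, 2 had every allele below every homozygote (0.547% of all genes did) and 0 above (0.175% of all genes did). These were RGT1 at 16.7, 41.4 and 166 against 181, 237 and 314, and HAP4 at 0, 12.9 and 43.5 against 374, 1100 and 2260. MSN4 was lower within each pair, at 8.27 and 6.75 against 831 and 1350 in S. paradoxus, 48.7 and 97.3 against 196 and 145 in S. mikatae and 4.09 and 3 against 68.4 and 201 in S. bayanus. HAP4, RGT1 and MSN4 were therefore lower in hybrids on both alleles, RGT1 by a small margin in S. bayanus. Homozygotes and hybrids differ in strain and markers as well as in the copies of each genome, and these cannot be told apart.

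**Figure D4:**
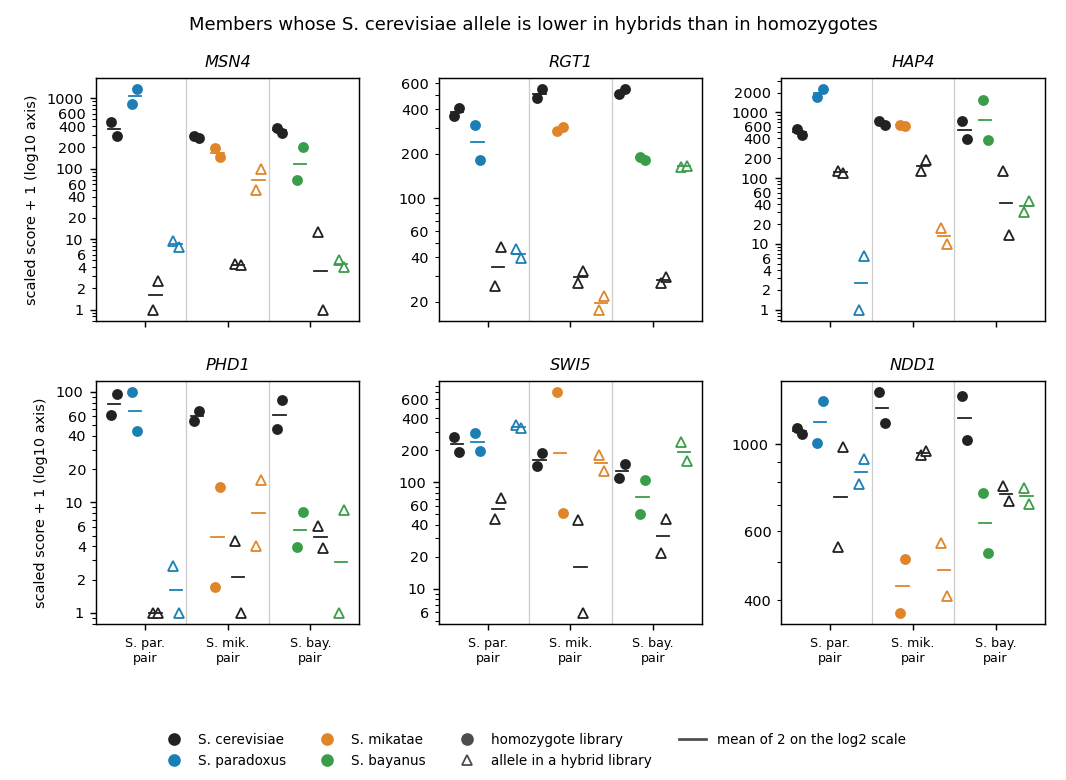
Scaled score plus 1, on a log10 axis, of MSN4, RGT1, HAP4, PHD1, SWI5 and NDD1 in every library, by species pair, with filled circles for homozygotes, open triangles for hybrid alleles, colours for species and a bar for the mean of the 2 replicates on the log2 scale. In each panel the 6 black triangles (S. cerevisiae alleles in hybrids) lie below the 6 black circles (S. cerevisiae homozygotes), by the widest margin for MSN4 and the narrowest for NDD1.

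The 500 bases before the start codons of these 6 members were searched in the S. cerevisiae reference (RefSeq R64, both strands) for 13 short motifs, to see whether letters known from the factors studied here were shared among them. For the stress factors Msn2 and Msn4 the motif searched was AGGGG. That of the Hap complex was CCAAT, that of the phosphate regulator Pho4 CACGTG, and that shared by Gcn4 and Bas1 TGACTC. The nitrogen regulators of the GATA family were represented by GATAAG. For mating and filamentation the motif of Ste12 was TGAAACA and that of Tec1 was CATTCC. For the cell cycle the forkhead motif was GTAAACA, that of Mbp1 was ACGCGT, that of Swi4 was CACGAAA and that of Swi5 was ACCAGC. The motif of Reb1 was TTACCCG, and the one of Yap1 was TTACTAA. Each stretch below is written 5′ to 3′ on the gene's strand, with the match or its reverse complement in capitals, and describes letters, not binding. They are both AGGGG matches of PHD1 (XI:356485-356509 and XI:356611-356635, plus strand), the GTAAACA of SWI5 (IV:751027-751053, minus strand) and of NDD1 (XV:1036689-1036715, minus strand), the GATAAG of MSN4 (XI:322864-322889, plus strand), and the CCAAT nearest the start codon in HAP4 (XI:232124-232148, plus strand) and in RGT1 (XI:365578-365602, plus strand).
PHD1 first: tcattaaaaaCCCCTccccattttt
PHD1 second: ttacatatctCCCCTcagttcccag
SWI5: taggaaaaagGTAAACAataacaatac
NDD1: tagcattccaGTAAACAagtttaggtc
MSN4: acaaaggtctCTTATCtatcaaaagt
HAP4: acacatatttATTGGtctcctagta
RGT1: ctctcaaactCCAATatatttcaaa
None of the 13 motifs was present in all 6. AGGGG was found in 33.9% of the 4722 genes searched and in 17 of the 52 members (32.7%), CCAAT in 62.9% and 33 members (63.5%), GATAAG in 22.8% and 17 members (32.7%), and GTAAACA in 10.4% and 16 members (30.8%). The other 9 were in 5.89% to 17.2% of genes and in 3.85% to 13.5% of members. In the same NDD1 stretch a CATTCC, the Tec1 motif (17.2% of genes, 9.62% of members), lies beside the forkhead match without overlapping it.

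The known targets of the members were counted from textbook lists, 127 of 162 distinct targets being in the tables. In a hybrid both alleles of a target meet the same factors. A target's allele ratio therefore does not report an effect of a difference between the factor's alleles. Ratios between alleles are given below as description only. GAT1, low in S. paradoxus homozygotes, stood beside 3 of 8 GATA targets that were lower, 0 that were higher and 5 that were not called (median log2 ratio -1.46, all genes -0.2; 11.5% of all genes were lower), with GAP1, the general amino acid permease, at -4.74 and UGA4, the GABA permease, at -4.04. PHO4, high in the same homozygotes, stood beside 4 of 5 phosphate targets that were lower (median -1.63), with VTC3 and VTC1, of the vacuolar polyphosphate polymerase, at -9 and -2.95. VTC3 was also low between the S. paradoxus alleles, at -8.27 (adjusted p = 0.117 with the block), where 1 of 5 was lower (2.56% of all genes were). The called targets had the direction of GAT1 in the first list and the one opposite to PHO4 in the second. GATA targets had the same median, -1.46, in S. mikatae homozygotes (all genes -0.13), where GAT1 was not called. There 2 of 8 were lower and 1 higher (11.5% and 8.25% of all genes), with GAP1 at -4.82 and MEP1, of the same list, at 3.22. Phosphate targets were also lower in S. mikatae (4 of 5, median -3.18, all genes -0.13; 11.5% of all genes were lower) and S. bayanus homozygotes (3 lower and 1 higher of 5, median -2.22, all genes 0.02; 16.2% of all genes were lower), where PHO4 was under the minimum score.

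Where RTG3 was called, 1 of its 4 targets was lower and 0 higher, beside 11.5% of all genes lower in S. mikatae homozygotes, 2.56% in the S. paradoxus and 17.2% in the S. bayanus allele. This was CIT2, peroxisomal citrate synthase, at -4.51 in S. mikatae homozygotes, and IDH2, a subunit of isocitrate dehydrogenase, at -2.49 in the S. paradoxus allele (adjusted p = 0.117 with the block) and -3.88 in the S. bayanus allele. In S. paradoxus homozygotes, where RTG3 was lower but not called, 2 of 4 were lower (11.5% of all genes were), CIT2 at -3.04 and IDH2 at -2.55. Also without an RTG3 call, CIT2 was at -3.21 in the S. mikatae allele (adjusted p = 0.0745 with the block). In S. bayanus homozygotes, again without one, IDH2 was at -1.56 and CIT1, of the same list, at 1.36. ICL1, isocitrate lyase and a target of Adr1 and Cat8, was at -5.83 in S. bayanus homozygotes and -3.45 between alleles. It was also lower where ADR1 was not called, at -3.98 in S. paradoxus homozygotes and -4.69 in S. mikatae homozygotes. In the S. mikatae allele, again without an ADR1 call, ICL1 was at -4.33 (adjusted p = 0.0761 with the block). MLS1, malate synthase of the same list, was at 2.82 in S. bayanus homozygotes and 2.21 between the S. bayanus alleles (adjusted p = 0.0753 with the block). The list thus did not share a direction in S. bayanus. HAP4 in S. paradoxus homozygotes stood beside CYC1, iso-1-cytochrome c, at 3.1 (1 of 6 targets called, median 0.97, with 8.38% of all genes higher). Between the S. paradoxus alleles, with HAP4 at -5.61 and not called, 0 of 6 were called. The low S. mikatae allele of HAP4 stood beside CYC1 at -5.88 (1 of 6, with 8.07% of all genes lower, adjusted p = 0.0745 with the block). In S. mikatae homozygotes, where HAP4 was not called, 1 of 6 was lower, CYC1 at -2.19. There 1 was higher, COX6 at 2.25 (11.5% of all genes were lower and 8.25% higher).

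For other called factors the counts were small. ZAP1 in S. mikatae homozygotes had 0 of 3 zinc targets called by limma (19.7% of all genes were). SWI5 had 0 of 3 in the S. paradoxus and S. bayanus alleles (4.98% and 35.5% of all genes were called). MSN2 in S. bayanus homozygotes had 2 of 7 stress targets higher and 0 lower (18.4% of all genes were higher), HXK1 at 3.33 and TPS1 at 2.69. Between the S. bayanus alleles, where MSN2 was at -2.91 and not called, 3 of 6 were higher and 0 lower (18.3% of all genes were higher). There HXK1 was at 2.97 and TPS1 at 2.15. MSN2 and MSN4 in the S. mikatae alleles had 0 of 5 called (15.9% of all genes were). TEC1 in S. bayanus homozygotes had 1 of 2 targets, FUS3, higher at 3.35 (18.4% of all genes were higher). Between the S. bayanus alleles, where TEC1 was also lower, FUS3 was at 3.8 (1 of 2, with 18.3% of all genes higher). MBP1 in S. bayanus homozygotes had 4 of 8 G1/S targets lower and 0 higher (16.2% of all genes were lower), with the S-phase cyclins CLB5 and CLB6 at -4.7 and -3.09. Between the S. bayanus alleles, without an MBP1 call, 2 of 8 were lower and 2 higher (17.2% and 18.3% of all genes), with CLB5 at -3.85. In S. mikatae homozygotes, again without one, 2 of 8 were lower and 0 higher (11.5% of all genes were lower), with CLB6 at -4.34. NDD1, lower in S. mikatae homozygotes, had 2 of 6 targets higher and 0 lower (8.25% of all genes were higher), the mitotic cyclin CLB2 at 2.67 and CDC20 at 2.41. OPI1 in the S. mikatae allele had 2 of 8 phospholipid targets lower and 0 higher (8.07% of all genes were lower), CHO2 at -4.17 and ITR1 at -2.73 (adjusted p = 0.0745 for both with the block). Without an OPI1 call, CHO2 was at -3.77 in S. mikatae homozygotes. In the S. bayanus allele, again without one, CHO2 was at 1.11 (adjusted p = 0.0914 with the block) and ITR1 at -2.13.

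The list of ribosomal targets was counted wherever SFP1 was called. In S. mikatae homozygotes, where SFP1 was higher, 1 of 10 was higher and 0 lower (8.25% of all genes were higher), RPS20, a small subunit protein, at 5.15. In S. bayanus homozygotes, where SFP1 was lower, RPS20 was again higher at 4.65 and 2 of the 10 were lower (16.2% of all genes were), RPS13 at -2.62 and RPS3 at -1.37. RPS20 was also higher in S. paradoxus homozygotes (3.11) and the S. bayanus allele (4.06), where SFP1 was not called. Between the S. mikatae alleles, with SFP1 higher, 1 of 10 was higher, RPS20 at 3.77, and 1 lower, RPL3, a large subunit protein, at -2.41 (adjusted p = 0.0745 for both with the block). Of all genes there, 7.82% were higher and 8.07% lower. In the S. paradoxus allele 0 of 10 were called (4.98% of all genes were). Other lists held calls in both directions, such as 3 GATA targets higher and 1 lower of 8 in S. bayanus homozygotes, where GAT1 was higher (18.4% and 16.2% of all genes). Among 5 Gcn4 targets there were 2 of each in the S. bayanus allele, where GCN4 was lower (18.3% and 17.2% of all genes). A factor and its targets were measured in the same libraries, and no list was tested as a set.

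FHL1 and FKH1 were among the members that changed least over the 6 species comparisons. FHL1, the ribosomal protein gene factor, ranged from -0.35 to 0.51, and FKH1, a forkhead factor, from -0.34 to 0.56. Altogether 23 of the 52 members (44.2%, against 33.2% of all 4730 genes) were called in none of the 6 comparisons, DAL80 without having been tested. SFP1, MIG1, RTG3 and SPT15, 4 members (7.69%, against 14.2% of all genes), were called in 3 or more. At this depth and with replicate differences as given above, the lack of a call does not show that a member was unchanged.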

How the data were processed

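Poly-A transcript ends were sequenced in 18 libraries, giving 24 value columns, since each hybrid library holds 2 alleles. Per the study's methods, the authors removed poly-T stretches, mapped reads to both genomes of a species pair with Bowtie 0.12.7 (CASAVA 1.7 is also named in the submitters' processing notes), kept unique hits, filtered internal priming, weighted reads for GC content and summed the weights over each gene with its flanks. The deposited values are these scores, rounded to whole numbers and not normalised between libraries. They are not plain read counts, so no count model and no counting interval was used.

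Each column was divided by its upper quartile (0.75 quantile), relative to the geometric mean over columns, 1 was added and log2 taken. Genes with a mean scaled score of at least 10 over the columns of a fit were tested with limma 3.58.1 (R 4.3.3, intensity trend, Benjamini-Hochberg over all genes, threshold 0.05) in 9 comparisons: homozygotes, alleles, and the difference of both ratios in each of 3 pairs. Groups came from the labels; which 2 of the 6 S. cerevisiae homozygote libraries belong to a pair came from the genomes they were counted against. Alleles of 1 hybrid share a library, so the block was an alternative in every allele and difference fit (correlation of replicate deviations 0.0119 to 0.057). p-values measure the spread between 2 biological replicates. Other alternatives were scaling by the total or by the median ratio, 5 added before log2, no minimum score, 1 fit over all columns of a kind, 1 factor for both alleles, all 6 S. cerevisiae homozygotes as the reference and leaving out each library. The fits were tested on simulated data.

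Members, roles, target lists and motifs were chosen with earlier results of these data known. Every member called without overlap between groups is named; values in every library are given for the 3 greatest ratios among called members of each homozygote or allele comparison and for members whose difference was called; of the 3 members of smallest range over 6 comparisons, 2 are named and 1 is not reported here, and at most 2 targets for a list whose factor was called. Gene positions and sequences are from RefSeq R64, to which 4722 of 4730 identifiers and all 52 members matched; figures were drawn with matplotlib 3.10.9 in Python 3.11.15.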

Additional observations from a re-analysis of the deposited data

Results flagged for a closer look

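Of the 52 members examined in the 6 S. cerevisiae homozygotes, 2 (3.85%, against 7.32% of 4724 genes) had a library far from the other 5. The rule has a nominal rate of about 1 of 20 groups, which all genes exceeded. The share of members flagged was below that of all genes, and this count does not speak to the size of either gap. ABF1 stood at 340 in replicate 3 against 80.8 to 138 in the others, a gap of 0.626 of the whole log2 range. MBP1 stood at 1080 in replicate 2 against 86.7 to 105, a gap of 0.924 of the range, and replicate 2 is 1 of the 2 references of the S. paradoxus homozygotes. The effect in homozygotes differed from that between alleles, by limma's test of the difference, for HAP4 (7.59) and ABF1 (3.74) in S. paradoxus and for RGT1 (-4.06) and ABF1 (4.68) in S. bayanus, all on the log2 scale.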

How the results depend on the processing

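With 2 samples a group, no call of a member changed direction under any setting tried, but many fell short of the threshold: of the calls of single members, 279 of 335 were past it under the other settings and 22 of 159 with 1 library left out. Beside 3 calls in S. paradoxus homozygotes there were 5 with scaling by the total, 8 in 1 fit over all columns, 8 with all 6 S. cerevisiae libraries, 1 with the replicate block (GAT1, adjusted p = 0.049; replicate numbers there are shared in name only, r = 0.0157) and 0 to 0 without each replicate. Between S. paradoxus alleles, 3 became 5 with 5 added, 6 in 1 fit over all columns, 6 with 1 factor for both alleles, 0 with the replicate block and 2 to 3 without each hybrid replicate. The difference of ratios in S. paradoxus went from 2 to 1 without a minimum score, 1 with all 6 S. cerevisiae libraries, 0 with the block and 0 to 0 without each replicate. In S. mikatae homozygotes 6 became 13 with all 6 S. cerevisiae libraries and 0 to 0 without each replicate; between its alleles 9 became 14 in 1 fit, 0 with the replicate block and 5 to 8 without each hybrid replicate; and the difference of ratios went from 0 to 1 with scaling by the total and 2 with all 6 S. cerevisiae libraries. In S. bayanus, homozygotes went from 13 to 0 to 6 without each replicate, alleles from 12 to 6 with the replicate block (5 of them among the 12) and 3 to 6 without each replicate, and the difference of ratios from 2 to 4 with all 6 S. cerevisiae libraries, 1 with the block and 0 to 2 without each replicate. These are counts of members, mostly without the share of all genes under the same setting, so a change may follow one over all genes. With the block, 7.29% of all genes were called in S. paradoxus homozygotes. For the difference of ratios the block gave 0.328% of all genes in S. paradoxus and 0.853% in S. bayanus. Leaving out a hybrid library used a spread pooled over the 3 hybrids, assuming that the lone library varies like the others. Scaling by the total moved the median ratio of all genes from -0.2 to -0.46 in S. paradoxus and from -0.13 to -0.47 in S. mikatae homozygotes. No paired analysis was possible for S. mikatae and S. bayanus homozygotes because they share no replicate numbers with their S. cerevisiae libraries. The causes were not tested. PHD1 was under the minimum score in the alleles of all 3 hybrids, and PHO4 in both readouts of the S. mikatae and S. bayanus pairs.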
